A study of Homo sapiens with 6 samples.

Results

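The genes described here are the 10 listed subunits of the HOPS and CORVET tethering complexes and of the related VPS33B-VIPAS39 complex, out of 57773 genes in the count table. Members were chosen by name, as known subunits, and the family was selected on a measured value, since the study had already listed VPS11 among the genes changed after ZNF507 disruption. The values of VPS11 in comparisons with ZNF507-disrupted cells are therefore given as a description without a test. All 10 genes passed the filter on low counts.

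RNA was sequenced from HEK293 cells, an established line of human embryonic kidney origin, in 3 groups of 2 libraries. All groups were transiently transfected with Cas9 plasmids (PX459). Plasmids with guides were used in equal amounts, with 4 target sequences for ZNF507 (sgZNF507) or 4 for ZNF146 (sgZNF146). The empty vector control (EV) had no guide. Every group was selected with puromycin for 36 h and grown out to 2 weeks. The edited cells were grown out as a transfected population, so that a library can hold cells with different edits as well as cells without one. The neurofilament and kidney genes NEFM, INA and PAX2, which are known from this line, were present in each library (PAX2, the lowest of them, at 5.25 to 8.03 CPM, the counts per 1000000 counts of a library). The leukocyte genes PTPRC and CD3E and the hepatocyte gene ALB had at most 6 counts in a library, and UMOD of the mature kidney had 0, which allows up to 3. COL1A1, entered as a fibroblast gene, was not low. It had a mean of 69.8 CPM in sgZNF507, 61.7 CPM in EV and 61.2 CPM in sgZNF146, and its part in the results for sgZNF507 was not tested.

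HOPS and CORVET are membrane tethers of the endosomal and lysosomal pathway. They share a core of VPS11, VPS16, VPS18 and VPS33A and differ in the subunits at their ends, which bind small GTPases. CORVET acts on early endosomes that carry RAB5, and HOPS brings late endosomes, autophagosomes and lysosomes together and hands them to the SNARE proteins that fuse membranes. VPS33B and VIPAS39, which resemble VPS33A and VPS16, form a separate complex and are the genes mutated in arthrogryposis, renal dysfunction and cholestasis syndrome.

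Genes of this pathway are known targets of transcription factors that bind the E-box CACGTG. Sequences before the annotated start were compared for VPS11, VPS16 and VPS39, which were chosen with their values known. VPS11 stood apart in sgZNF507, VPS16 is a core subunit that did not pass the test, and VPS39 is a HOPS subunit. The 250 bases before the start are shown from RefSeq on GRCh38.p14, 5′ to 3′ in the direction of the gene, with CACGTG in capitals. They lie at chr11:119067568-119067817 (plus strand, VPS11), chr20:2840495-2840744 (plus strand, VPS16) and chr15:42208305-42208554 (minus strand, VPS39).
VPS11: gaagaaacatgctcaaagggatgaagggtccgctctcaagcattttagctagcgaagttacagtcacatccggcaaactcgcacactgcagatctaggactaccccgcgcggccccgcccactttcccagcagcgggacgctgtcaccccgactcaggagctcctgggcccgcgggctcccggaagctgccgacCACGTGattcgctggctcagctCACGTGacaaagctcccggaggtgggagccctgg
VPS16: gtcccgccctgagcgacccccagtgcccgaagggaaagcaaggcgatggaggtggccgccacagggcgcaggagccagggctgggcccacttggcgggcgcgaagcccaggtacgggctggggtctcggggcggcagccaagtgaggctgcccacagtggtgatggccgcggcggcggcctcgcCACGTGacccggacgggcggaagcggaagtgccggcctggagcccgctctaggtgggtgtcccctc
VPS39: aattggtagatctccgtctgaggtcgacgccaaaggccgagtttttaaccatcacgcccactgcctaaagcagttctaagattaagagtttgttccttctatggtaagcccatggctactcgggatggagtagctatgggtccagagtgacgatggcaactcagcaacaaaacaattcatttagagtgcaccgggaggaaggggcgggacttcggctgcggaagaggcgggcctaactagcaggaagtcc

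The window before VPS11 held CACGTG at 2 places, whose first bases lie 56 and 34 bases before the start, and the window before VPS16 held it once, 66 bases before the start. The motif is its own reverse complement, so that both strands were searched at once. It occurred in 6.35% of 35116 windows of the same length, and 0.535% of them held it 2 or more times. A second annotated start of VPS11 lies downstream, and its window overlaps the first and contains the nearer of the 2 motifs. RefSeq windows were matched for 7 of the 10 members, and CACGTG was found for 2 of these, VPS11 and VPS16. Counted by gene, 7.73% of 27305 genes had it in at least 1 window. VPS18, VPS33A and VPS33B had no window in the table. A match describes the sequence and does not show binding. Whether the motif has a part in the difference of VPS11 in sgZNF507 was not tested.

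VPS11 (ENSG00000160695; hg19 chromosome 11, plus strand, 118938529 to 118952682) encodes a core subunit with a RING finger that holds the complex together. It was counted 952 and 1095 times in EV, 968 and 922 times in sgZNF146 and 1450 and 1730 times in sgZNF507. Scaled to library size these were 38.2 and 39.6 CPM in EV, 38.1 and 36.6 CPM in sgZNF146 and 62.9 and 59.7 CPM in sgZNF507. Both sgZNF507 libraries stood above the other four, which lay close together. The means were 38.9 ± 0.965 CPM in EV, 37.4 ± 1.06 CPM in sgZNF146 and 61.3 ± 2.27 CPM in sgZNF507 (SD, n = 2 each). The log2 fold change of VPS11 in sgZNF507 against EV was 0.65 (standard error 0.077, a 1.57-fold difference), and against sgZNF146 it was 0.71 (standard error 0.077). These comparisons share the sgZNF507 libraries. In bulk RNA of a population of cells, a larger share of cells with a higher level and a higher level in every cell cannot be told apart.

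**Figure D1:**
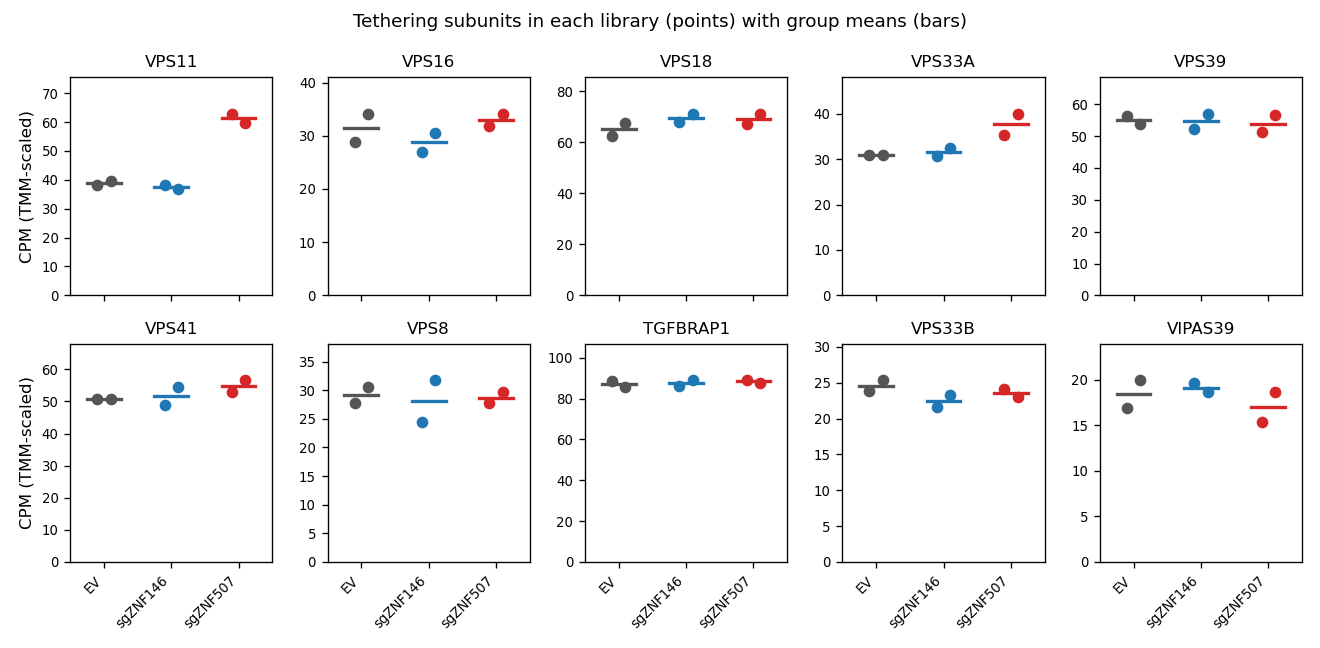
CPM (scaled by TMM, vertical axis from 0) of the 10 subunits in each library, with points for libraries and bars for the means of EV, sgZNF146 and sgZNF507. VPS11 in both sgZNF507 libraries (62.9 and 59.7 CPM) lies above the other libraries, and VPS33A does so by less. For no remaining subunit do both sgZNF507 libraries lie above, or both below, all other libraries.

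The question of the main comparison was whether loss of ZNF507, a zinc finger protein that binds LINE-1 elements, altered expression of host genes. ZNF507 itself had 47.2 and 48.7 CPM in sgZNF507, below the 72.0 and 75.5 CPM of EV and the 71.3 and 73.3 CPM of sgZNF146 (edgeR adjusted p = 0.00195 against EV). Of the 9 subunits other than VPS11, 0 passed the threshold of 0.05 on the adjusted p when sgZNF507 was set against EV (edgeR, quasi-likelihood, with p-values adjusted over 22010 genes), beside 0.182% of all genes tested. DESeq2 called 0 of the 9 as well, with 6 or with 4 libraries in the fit. An unadjusted p under 0.05 in edgeR was found for 1 of them, VPS33A, beside 3.39% of all genes tested. Of the 9 log2 fold changes, 5 were above 0 and 4 below, with a median of 0.018, compared with -0.0032 over all genes tested. Groups did not overlap for 2 of the 9, VPS33A and VPS41, or 22.2%, beside 29.3% of all genes tested.

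VPS33A (chromosome 12, minus strand, 122714111 to 122751041) encodes the core subunit that binds SNARE proteins. It had 30.9 and 30.9 CPM in EV, 30.7 and 32.4 CPM in sgZNF146 and 35.3 and 40.1 CPM in sgZNF507. Both sgZNF507 libraries were thus above the other four, but were themselves further apart than the libraries of either other group. The log2 fold change in sgZNF507 against EV was 0.29 (standard error 0.090, 95% interval 0.095 to 0.484, edgeR adjusted p = 1.00). It was 0.21 without sgZNF507 replicate 2 and 0.37 without sgZNF507 replicate 1. VPS33A shares 1609 exon bases with ENSG00000256861 on the same strand, a row with 0 counts in all libraries, so that reads from these exons may not have been assigned to either gene.

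VPS16 (chromosome 20, plus strand, 2821349 to 2847378) encodes the core subunit that recruits VPS33A. It had 28.9 and 34.1 CPM in EV, 26.9 and 30.6 CPM in sgZNF146 and 31.8 and 34.2 CPM in sgZNF507. The ranges of EV and sgZNF507 overlapped, and the log2 fold change was 0.067 (95% interval -0.158 to 0.292). VPS18 (chromosome 15, plus strand, 41186648 to 41196173) encodes the other core subunit with a RING finger. Its values were 62.5 and 67.6 CPM in EV, 68.0 and 71.2 CPM in sgZNF146 and 67.1 and 71.1 CPM in sgZNF507. The groups again overlapped for EV and sgZNF507, and the log2 fold change was 0.087 (95% interval -0.071 to 0.246). VPS16 and VPS18 had edgeR adjusted p-values of 1.00 and 1.00.

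VPS39 and VPS41 are the HOPS subunits that contact RAB7 and other GTPases of late endosomes and lysosomes. VPS39 (chromosome 15, minus strand, 42450899 to 42500505) had 56.4 and 53.8 CPM in EV, 52.1 and 57.1 CPM in sgZNF146 and 51.3 and 56.5 CPM in sgZNF507. VPS41 (chromosome 7, minus strand, 38762574 to 38971994) had 50.8 and 50.7 CPM in EV, 48.9 and 54.4 CPM in sgZNF146 and 53.0 and 56.7 CPM in sgZNF507. The 2 EV libraries of VPS41 were almost equal and both sgZNF507 libraries were above them, whereas the sgZNF146 libraries lay on either side. The log2 fold change in sgZNF507 against EV was -0.029 for VPS39 (95% interval -0.205 to 0.147) and 0.11 for VPS41 (95% interval -0.061 to 0.285).

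VPS8 and TGFBRAP1 are the CORVET subunits, and TGFBRAP1 is the counterpart of yeast Vps3. VPS8 (chromosome 3, plus strand, 184529931 to 184770402) had 27.7 and 30.5 CPM in EV, 24.4 and 31.8 CPM in sgZNF146 and 27.7 and 29.7 CPM in sgZNF507. TGFBRAP1 (chromosome 2, minus strand, 105880848 to 105946192) had 88.9 and 85.9 CPM in EV, 86.0 and 89.0 CPM in sgZNF146 and 89.1 and 87.9 CPM in sgZNF507. VPS8 was the member whose sgZNF146 replicates differed most (0.37 in log2), whereas TGFBRAP1 varied little between libraries. In sgZNF507 against EV the log2 fold change was -0.020 for VPS8 (95% interval -0.276 to 0.235) and 0.018 for TGFBRAP1 (95% interval -0.120 to 0.156).

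VPS33B and VIPAS39, the pair outside HOPS and CORVET, had the lowest CPM of the family. VPS33B (chromosome 15, minus strand, 91541903 to 91565833) had 23.8 and 25.4 CPM in EV, 21.6 and 23.3 CPM in sgZNF146 and 24.1 and 22.96 CPM in sgZNF507. VIPAS39 (chromosome 14, minus strand, 77893018 to 77924295) had 16.9 and 19.97 CPM in EV, 19.7 and 18.6 CPM in sgZNF146 and 15.4 and 18.6 CPM in sgZNF507. For both genes the ranges of EV and sgZNF507 overlapped. The log2 fold changes were -0.064 (95% interval -0.269 to 0.141) and -0.11 (95% interval -0.377 to 0.152). VPS33B shares 2091 exon bases with ENSG00000284946 on the same strand, a gene with no row in the count table. VIPAS39 shares 83 exon bases with AHSA1 on the opposite strand, and reads there may not be separated.

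**Figure D2:**
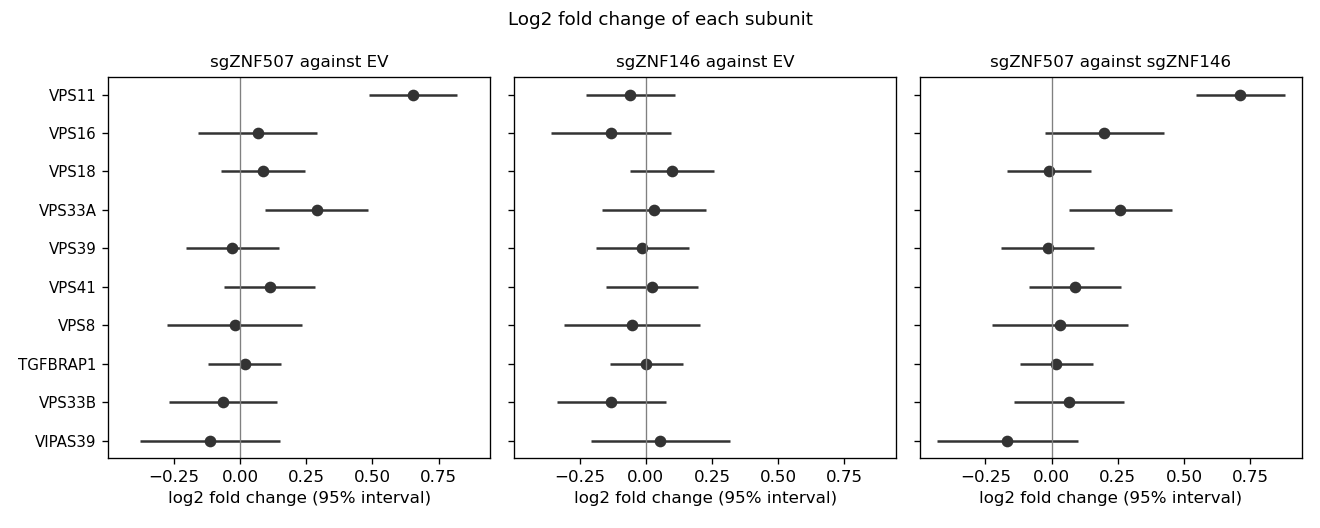
Log2 fold change of each subunit (points) with its approximate 95% interval (lines) from edgeR in the 3 comparisons. VPS11 lies at 0.65 and 0.71 in the comparisons with sgZNF507, VPS33A at 0.29 and 0.26, and the intervals of the other subunits include 0 in all 3 panels. The lines drawn for VPS11 in the comparisons with sgZNF507 are a description and no test, because the family was chosen on its value.

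The upper bounds of the 95% intervals of the 9 subunits other than VPS11 ran from 0.141 for VPS33B to 0.484 for VPS33A. The replicates of the 10 members differed in log2 by a median of 0.079 (EV), 0.092 (sgZNF146 libraries) and 0.097 (those of sgZNF507). The corresponding medians over 10647 genes with a mean of at least 10 CPM were 0.084, 0.077 and 0.101. The members were thus about as variable between replicates as this set of genes, which was not matched to them in abundance.

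**Figure D3:**
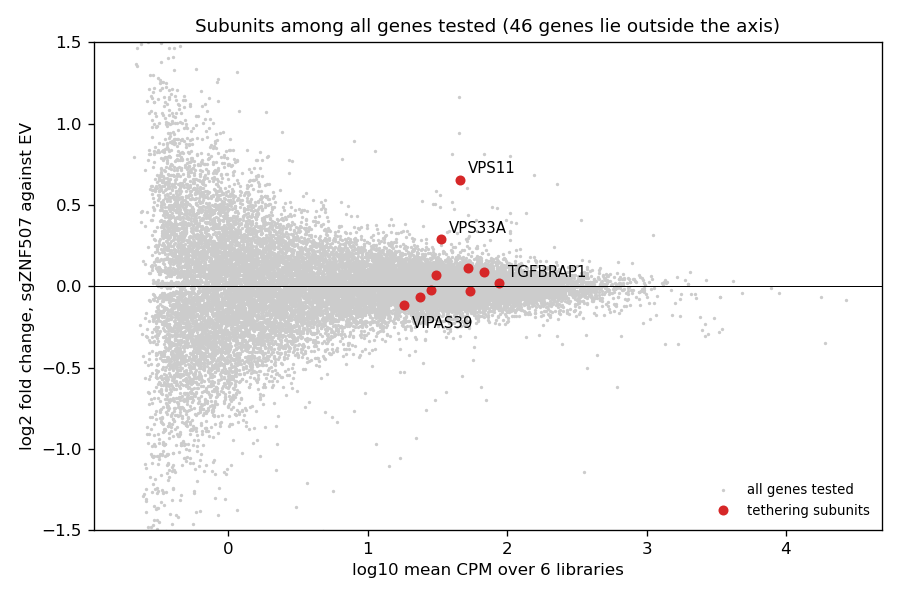
Log2 fold change in sgZNF507 against EV against the log10 of the mean CPM over 6 libraries for 22010 genes tested (grey), with the 10 subunits in red. VPS11 lies at 0.65 and VPS33A at 0.29, and the other members lie between -0.11 and 0.11 (46 genes with a change of over 1.5 in either direction fall outside the axis).

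In sgZNF146 against EV, 0 of the 10 subunits passed the threshold (edgeR's quasi-likelihood test), 0 had an unadjusted p under 0.05, and DESeq2 called 0. Over all genes the share called was 0%, and 2.43% had an unadjusted p under 0.05. The RNA of ZNF146 itself did not pass, with 99.2 and 102.7 CPM in sgZNF146 and 114.9 and 105.4 CPM in EV (log2 fold change -0.13, edgeR adjusted p = 1.00). It had 88.4 and 101.4 CPM in sgZNF507. The study examined the disruption by western blot and by indels in the reads, which were not analysed here. VPS11 was at -0.058 in log2 (standard error 0.078, 95% interval -0.227 to 0.111), in a comparison that shares the EV libraries with the one it was chosen on. The largest log2 fold changes were -0.13 for VPS16, -0.13 for VPS33B and 0.098 for VPS18, each with an interval that included 0. The groups did not overlap for 3 of the 10 (VPS11 and VPS33B lower, VPS18 higher), or 30%, beside 28.6% of all genes tested. The median log2 fold change was -0.0063, compared with -0.0013 over all genes tested.

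In sgZNF507 against sgZNF146, 0 of the 9 subunits other than VPS11 passed, beside 0.173% of all genes tested, and DESeq2 again called 0. VPS33A alone had an unadjusted p under 0.05 (beside 4.03% of all genes tested), at a log2 fold change of 0.26 (standard error 0.090, edgeR adjusted p = 1.00). VPS16 was 0.20 (95% interval -0.027 to 0.426) and VIPAS39 was -0.17 (95% interval -0.432 to 0.098). Groups did not overlap for these 3 of the 9, or 33.3%, beside 32.1% of all genes tested.

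Levels of different subunits were compared after division by the length of their exons and scaling to the same sum in each library. In EV the order began with VPS18 (43.0 ± 1.31) and TGFBRAP1 (40.9 ± 1.97), whose libraries overlapped (SD, n = 2 each). VPS16 followed at 24.9 ± 2.31, with libraries that overlapped neither neighbor in the order on this length. VPS11 (18.0 ± 0.0032), VPS39 (17.6 ± 1.03), VPS41 (17.5 ± 0.446) and VPS33B (17.5 ± 0.341) came next, and each overlapped its neighbor in the order. VIPAS39 (13.3 ± 1.25), VPS33A (11.03 ± 0.253) and VPS8 (7.48 ± 0.320) were the lowest, without overlap between them. Both core and end subunits were thus found near the top and near the bottom of the order. With the length of the longest transcript in place of all exons, the gap below VPS16 was lost, with means of 25.6 for VPS16, 25.3 for VPS11 and 25.1 for VPS39. VPS18, TGFBRAP1, VPS16, VPS11 and VPS39 kept ranks 1 to 5 and VPS8 rank 10, while VPS33B passed VPS41 and VPS33A passed VIPAS39.

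**Figure D4:**
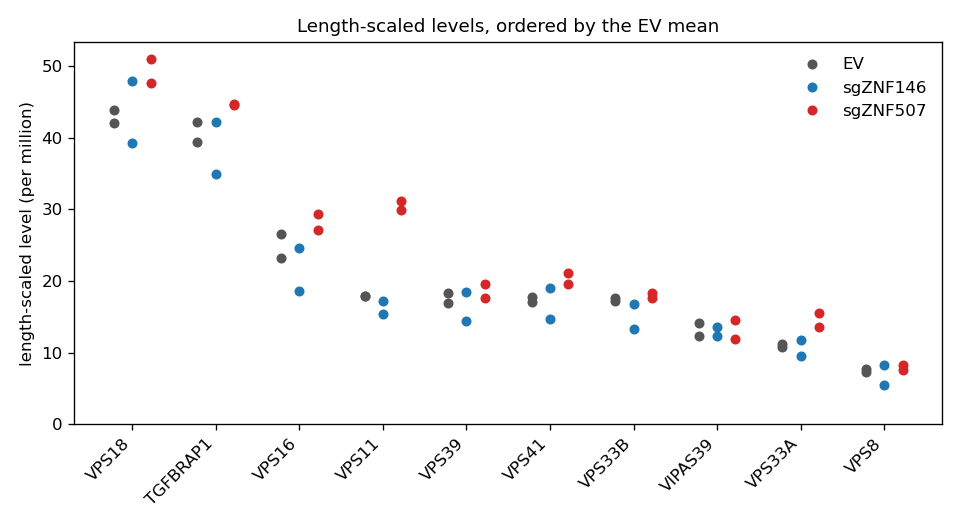
Length-scaled level (scaled to the same sum in each library, vertical axis from 0) of each subunit in the 6 libraries. Levels use the length of all exons. Subunits are ordered by the EV mean and points are colored by group. VPS18 and TGFBRAP1 lie highest and VPS8 lowest, and VPS11 in sgZNF507 (31.2 and 29.9) lies above VPS16 instead of below it.

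In sgZNF507 the length-scaled level of VPS11 was 31.2 and 29.9, above the 27.1 and 29.4 of VPS16, and VPS11 thereby moved from the fourth to the third place. Relative to the mean of the other core subunits, VPS16, VPS18 and VPS33A, the VPS11 level was 0.704 and 0.663 in EV, 0.684 and 0.612 in sgZNF146, and 1.06 and 0.936 in sgZNF507. The sum of the HOPS subunits VPS39 and VPS41 divided by that of the CORVET subunits VPS8 and TGFBRAP1 was 0.730 and 0.722 in EV, 0.720 and 0.743 in sgZNF146, and 0.711 and 0.771 in sgZNF507. This ratio thus overlapped between the groups. VPS33A relative to its relative VPS33B was 0.651 and 0.613 in EV, 0.714 and 0.699 in sgZNF146, and 0.736 and 0.878 in sgZNF507. Together the 10 genes took 0.0404% to 0.0485% of the counts of a library. The length-scaled sum of the 9 genes other than VPS11 was lowest in sgZNF146 replicate 1, at 163 compared with 192 to 222 in the other libraries. Genes with exons under 300 bases in total took 26.3% of the length-scaled total in that library and 21.2% to 24.8% in the others, and their part in the result was not tested.

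The pattern of VPS11 over the 6 libraries was compared with that of 10083 other protein-coding genes with a mean of at least 10 CPM. The closest were SMCR8 (Pearson's r = 0.996 in log2 CPM over 6 libraries), COMMD9 (0.995), LAMP1 (0.990), BAX (0.989) and TMUB2 (0.989). SMCR8 acts in autophagy with C9orf72, LAMP1 is a major lysosomal membrane protein, COMMD9 belongs to an endosomal sorting complex and BAX promotes apoptosis. Of these, all but TMUB2 were on the study's own list of genes changed in sgZNF507. The correlation does not measure the size of a change. In sgZNF507 against EV, TMUB2 was at 0.11 in log2 and COMMD9 at 0.94. A correlation of 0.95 or more was found for 32 of the 10083 genes. The points share libraries and groups, and a difference between sgZNF507 and the rest is enough to give such a value. VPS33A was the closest member (r = 0.861, rank 184), followed by VPS41 (r = 0.587, rank 1215), whereas VIPAS39 was the most distant (r = -0.548).

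HYOU1, a chaperone of the endoplasmic reticulum, lies next to VPS11 on chromosome 11 and did not pass the threshold. The gene lies on the minus strand, and its 5′ end is 10591 bp from the start of VPS11. It had a mean of 257 ± 0.428 CPM (SD, n = 2) in the EV libraries and 269 ± 4.82 CPM (SD, n = 2) in those of sgZNF507. Its log2 fold change was 0.066 (edgeR adjusted p = 1.00). For each of the 10 members, the nearest protein-coding gene on each side was taken among those that passed the filter and did not overlap the member. Of these 20 neighbors, 0 passed the threshold in sgZNF507 against EV or in sgZNF146 against EV, beside 0.182% and 0% of all genes tested. Some were near the floor, such as GPR45 with a mean of 0.54 CPM in EV.

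Partners of the complexes were described from a list of 34 genes, all of which passed the filter on low counts. In sgZNF507 against EV, 0 of 34 passed (edgeR's quasi-likelihood test), beside 0.182% of all genes tested. An unadjusted p under 0.05 was found for 2 of 34, beside 3.39% of all genes tested. DESeq2 called 0, and the median log2 fold change was -0.041. Of the 15 GTPases and activators, 3 were above 0 and 12 below, beside 10774 above and 11236 below over all genes tested. In sgZNF146 against EV, which shares the EV libraries, 5 of the 15 were above 0 and 10 below. RAB5B, a GTPase of early endosomes, was the highest in sgZNF507 against EV at 0.11 (95% interval -0.099 to 0.317). CCZ1, a subunit of the activator of RAB7, was the lowest at -0.31 (95% interval -0.609 to -0.014), with 10.3 ± 0.954 CPM in EV, 8.17 ± 0.470 CPM in sgZNF146 and 8.29 ± 0.921 CPM in sgZNF507 (SD, n = 2 each). Its near-identical copy CCZ1B was at -0.29, and the counting could split reads between them, so that both values are uncertain.

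Among the 7 adaptors and effectors, RILP, which links RAB7 and HOPS to dynein, had 3.82 and 4.12 CPM in EV, 4.89 and 3.70 CPM in sgZNF146 and 6.12 and 5.28 CPM in sgZNF507. Both sgZNF507 libraries were above the others, at counts between 93 and 153 per library. The log2 fold change of RILP in sgZNF507 against EV was 0.52 (standard error 0.181, edgeR adjusted p = 1.00). Groups did not overlap for 9 of the 34 partners in that comparison, or 26.5%, beside 29.3% of all genes tested. In sgZNF507 against sgZNF146 the share was 32.4%, beside 32.1% of all genes tested. The lowest of the adaptors and effectors in sgZNF507 against EV was the tether EEA1 at -0.062. In the fusion machinery, the 12 genes ran from -0.14 for NAPG, an attachment protein for NSF, to 0.11 for the SNARE protein STX8. In sgZNF146 against EV, 0 of the 34 partners passed, beside 0% of all genes tested. An unadjusted p under 0.05 in edgeR was found for 1, CCZ1, beside 2.43% of all genes tested. In sgZNF507 against sgZNF146, 0 passed, beside 0.173% of all genes tested. There 3 of the 34 had an unadjusted p under 0.05 in edgeR, beside 4.03% of all genes tested. They were RILP, VAMP8 (-0.33) and NAPA (0.19).

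**Figure D5:**
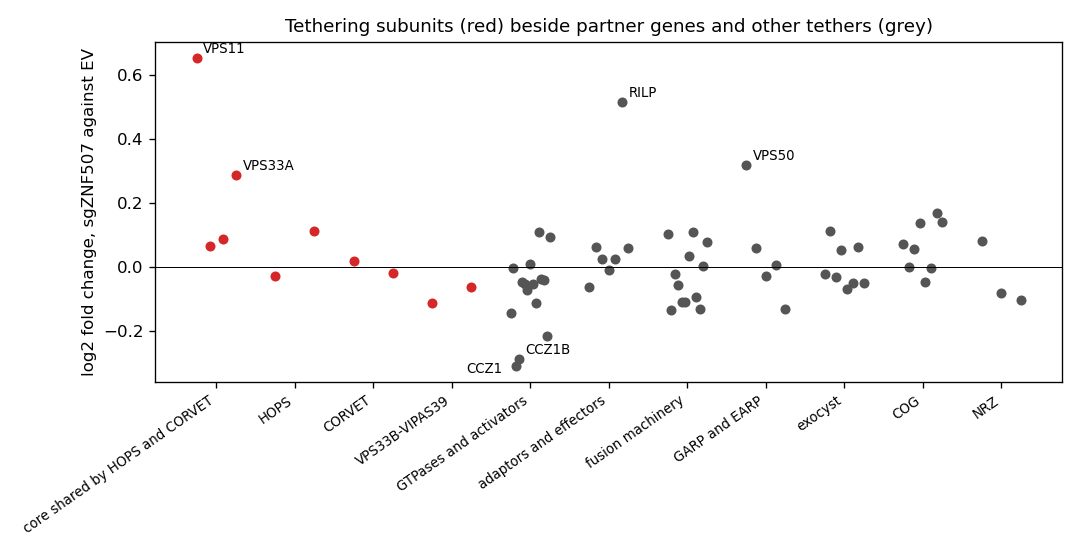
Log2 fold change in sgZNF507 against EV of the tethering subunits (red) and, in grey, of 34 partner genes and 24 subunits of other tethering complexes, grouped by role. VPS11 (0.65) and RILP (0.52) lie highest and CCZ1 (-0.31) lowest, and the other tethers lie between -0.13 and 0.32.

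Subunits of other tethers gave a comparison with complexes of similar kind. Of 24 subunits of GARP and EARP, the exocyst, COG and NRZ, 0 passed in sgZNF507 against EV (edgeR's quasi-likelihood test), beside 0.182% of all genes tested, and DESeq2 called 0. An unadjusted p under 0.05 was found for 1 of them, beside the same 3.39%. The median log2 fold change was 0.0041. VPS50, the subunit that distinguishes EARP from GARP, was the highest at 0.32 (standard error 0.099, edgeR adjusted p = 1.00), with 17.9 and 19.0 CPM in EV, 18.0 and 18.4 CPM in sgZNF146 and 22.002 and 23.9 CPM in sgZNF507. Both sgZNF507 libraries of VPS50 were above all other libraries. Groups did not overlap for 9 of the 24 in sgZNF507 against EV (6 higher, 3 lower), or 37.5%, beside 29.3% of all genes tested. In sgZNF507 against sgZNF146 the share was 29.2%, beside 32.1% of all genes tested. VPS54 was the lowest of GARP and EARP at -0.13. The 8 exocyst subunits ran from -0.068 for EXOC5 to 0.11 for EXOC2, the 8 COG subunits from -0.047 for COG5 to 0.17 for COG7, and the 3 NRZ subunits from -0.10 for ZW10 to 0.080 for NBAS. In sgZNF146 against EV, 0 of the 24 passed and 0 had an unadjusted p under 0.05, beside 0% and 2.43% of all genes tested. Their median was -0.0081. In sgZNF507 against sgZNF146, 0 passed, beside 0.173% of all genes tested. There 1, VPS50, had an unadjusted p under 0.05 (log2 fold change 0.33, edgeR adjusted p = 0.769), beside 4.03% of all genes tested. This call depended on the model, as VPS50 passed in edgeR with the replicate number as a block (adjusted p = 0.0482). The labels do not say that a number marks a shared batch.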

How the data were processed

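RNA of HEK293 cells (6 libraries, 2 in each of 3 groups) was sequenced as paired-end 50 bp reads after ribosome depletion. The authors trimmed adapters, discarded ribosomal reads, aligned to hg19 with TopHat2 and Ensembl gene models, and assigned reads to genes with featureCounts. Whether strand was used in counting is not given in the sources used here. The deposited values are raw counts per gene, with library totals of 22724439 to 28524025. Duplicates cannot be told apart from separate molecules in these counts.

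Groups and replicate numbers were taken from the labels. Symbols, positions and exon lengths came from GENCODE on GRCh37, which is the build of hg19 and matched 96.1% of 57773 genes. NEFL and PECAM1, entered as marker genes, were not matched. Counts were filtered by filterByExpr (22010 genes left), normalized by TMM and fitted with all 6 libraries in edgeR 4.0.16 under R 4.3.3 (common dispersion 0.0052, prior degrees of freedom 9.51). Contrasts were tested with glmQLFTest at a Benjamini-Hochberg threshold of 0.05 over all genes. Standard errors and 95% intervals were derived from the F statistic and are approximate. Libraries are labelled as biological duplicates. An exact permutation of 2 libraries against 2 cannot give a p below 0.333. CPM used the TMM-adjusted library size, and correlations used log2 of CPM plus 0.5. DESeq2 1.42.0 was an alternative test. The steps were tested on simulated data.

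The named genes are the 10 members, the disrupted genes, the genes next to VPS11, the 5 genes most like VPS11 and, from the lists of partners and other tethers, any gene past the threshold and the highest and lowest of each role in sgZNF507 against EV. The genes CCZ1B, VAMP8 and NAPA were named after their values were seen. The members and lists were chosen with earlier results of these data known. Figures were drawn with matplotlib 3.10.9. LINE-1 expression and ChIP-seq peaks were not analysed here. Some genes that these rules name are not reported here.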

Additional observations from a re-analysis of the deposited data

How the results depend on the processing

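The fit was repeated with DESeq2 size factors or upper quartile scaling, without a filter, with a minimum of 10 counts per library, in DESeq2 (all libraries, or those of the contrast), in edgeR with the libraries of the contrast alone, with the replicate as a block, and without each library. With a library left out, its group holds 1 library, which the fit assumes to vary like the other groups. The counts of members and of partner genes past the threshold stayed at 0 in all 3 comparisons under these 14 settings. The log2 fold change of VPS11 stayed between 0.616 and 0.704 in sgZNF507 against EV and between 0.674 and 0.763 against sgZNF146. The deviations of replicate 1 from the group mean correlated between groups with r = 0.191 to 0.242 across genes, but the labels do not say that a number marks a shared batch. With the replicate block, 1 subunit of the other tethers passed in sgZNF507 against sgZNF146 (VPS50, adjusted p = 0.0482 in edgeR) in place of 0, and VPS33A had an adjusted p of 0.0514 against EV and 0.0944 against sgZNF146. No other call in the lists changed. Over all genes, the block raised the calls from 40 to 121 in sgZNF507 against EV, from 0 to 33 in sgZNF146 against EV and from 38 to 196 in sgZNF507 against sgZNF146. Without a filter they were 101, 19 and 112. In sgZNF146 against EV, edgeR and DESeq2 on the 4 libraries compared called 3 genes each, and leaving out a library gave 0 to 3. With EV replicate 1 or 2 left out, 12 or 22 genes were called in sgZNF507 against EV, with sgZNF146 replicate 1 or 2 left out, 13 or 23 in sgZNF507 against sgZNF146, and with sgZNF507 replicate 1 left out, 25 in sgZNF507 against EV. The cause was not tested.

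Values near 0 changed sign when a library was left out. In sgZNF507 against EV these were COG5 (-0.138 to 0.0428), EEA1 (-0.259 to 0.111), STX8 (-0.0281 to 0.256), TGFBRAP1 (-0.00949 to 0.0459), VIPAS39 (-0.248 to 0.0117), VPS16 (-0.0433 to 0.189), VPS39 (-0.0904 to 0.0358) and VPS8 (-0.0833 to 0.0471), with their range in log2 in parentheses. In sgZNF146 against EV they were TGFBRAP1 (-0.0283 to 0.025), VIPAS39 (-0.061 to 0.177), VPS33A (-0.0103 to 0.0699), VPS39 (-0.0823 to 0.0502), VPS41 (-0.0568 to 0.0991) and VPS8 (-0.257 to 0.125), and in sgZNF507 against sgZNF146 TGFBRAP1 (-0.00287 to 0.0427), VPS18 (-0.0412 to 0.0284), VPS39 (-0.0762 to 0.0527) and VPS8 (-0.141 to 0.236). TGFBRAP1 was also -0.00164 in sgZNF146 against EV without a filter. With the length of the longest transcript, the EV levels per length were 36.9 for VPS18, 33.9 for TGFBRAP1, 25.3 for VPS11, 25.1 for VPS39, 19.1 for VPS41, 21.6 for VPS33B, 14.9 for VPS33A and 12.7 for VPS8, beside 25.6 for VPS16 and 13.8 for VIPAS39. The EV level of VPS11 was 17.96 to 17.97 with 1 library left out. A 95% interval is not a detection limit here, because calls were made on p-values adjusted over 22010 genes. The interval of VPS33A in sgZNF507 against EV (0.095 to 0.484) lay above 0, but VPS33A did not pass the threshold. With 2 libraries in a group, the smallest effect on a member that could be called at this depth was not tested.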
